A study of Mus musculus with 11 samples.

Results

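Exoc5, Exoc6 and Exoc8, which encode subunits of the exocyst, and Stx12, which encodes syntaxin 12, were followed in cardiac fibroblasts of mice lacking Pw1. They were chosen by name as the exocyst and syntaxin genes of the gene table used here, and they are 4 of its 1293 complete genes. All 4 had a count in every library and passed the filter on low counts. Relative to the other genes of a library, the reads of Exoc6 fell in the knockout fibroblasts and those of Exoc5 rose. On the TPM scale, however, Exoc5 was lower in the knockouts. Of the 2 sets of libraries, Stx12 in CPM rose in set 1 and fell in set 2. Its rise was not called with set 1 fitted alone, and in TPM Stx12 was lower in the set 1 knockouts. In CPM, Exoc8 rose in set 2 and did not pass the test in set 1.

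The exocyst is a tethering complex that holds secretory and recycling vesicles at the plasma membrane before they fuse. Exoc5, Exoc6 and Exoc8 sit together with Exoc7 in the same subcomplex, where Exoc6 binds Rab11 on the incoming vesicle and Exoc8 is a subunit through which Ral GTPases bind the complex. Fusion itself is done by SNARE proteins, and syntaxin 12 (also called syntaxin 13) is the SNARE of recycling endosomes, which return internalised receptors to the cell surface. Fibroblasts of the injured heart secrete collagen and other matrix proteins, and that secretion uses the same general machinery.

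Poly(A) RNA was sequenced from fibroblasts isolated from the injured left ventricle 3 days after myocardial infarction, and the series asked how Pw1 (gene symbol Peg3) acts on extracellular matrix genes. The labels word the genotypes in 2 ways, which gives 2 sets of libraries. In set 1, the 3 controls were wild type, Pw1fl/+ or Pw1fl/fl, without saying which library was which, and the 3 knockouts (CKO) were Pdgfra-Cre;Pw1fl/fl. In set 2, the 3 controls were Pw1 fl/fl and the 2 knockouts were PDGFRa Cre+;Pw1 fl/fl. The Cre is driven by Pdgfra, which is active in fibroblasts and in other mesenchymal cells. All mice had an infarct, so no uninjured heart is in the comparison, and the labels used here give no age. Nothing in the labels says that the libraries came from separate animals, so the p-values measure the spread between these libraries, which may be technical. The 2 knockout libraries of set 2 are called CKO a and CKO b, because their columns carry numbers that match no single sample, and they were placed in set 2 by elimination.

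Peg3 and the defining fibroblast markers listed for the check of the cells were not among the genes held, so neither the deletion nor the cell type was checked here. Of the markers of other cell types, 1 of 15 for macrophages and monocytes and 2 of 7 for red cells were held. Ly6c2, of monocytes, was 1.01 higher in the knockouts on the log2 scale (65.7 ± 6.37 CPM in controls and 138 ± 69.8 CPM in knockouts, SD). The haemoglobin genes Hbb-bs and Hbb-bt were 2.67 and 2.64 higher on the log2 scale, at 2.57 ± 0.643 against 17.5 ± 9.997 CPM for Hbb-bs. These markers were higher in both sets and more so in set 2, with log2 differences of 0.46 in set 1 and 1.67 in set 2 for Ly6c2, 1.76 and 3.74 for Hbb-bs, and 2.26 and 3.08 for Hbb-bt. All have short effective transcript lengths, at 785 nt for Ly6c2, 591 nt for Hbb-bs and 582 nt for Hbb-bt. Of 53 tested genes under 1000 nt, 35 were called higher and 6 lower, with a median log2 change of 1.413. Hbb-bt had few reads, at 0.208 ± 0.191 CPM in controls and 1.33 ± 0.536 CPM in knockouts (SD). The part of these markers in the results below was not tested. In bulk RNA, fewer cells of a type and less RNA per cell cannot be told apart. Whole-library totals recovered from the deposited values were 20621056 to 20911712 reads in the controls and 20612931 to 20860802 in CKO 1 to 3, and those of CKO a and CKO b were estimated at 18654439 and 18926214. The mean effective transcript length of a library was 2167 to 2294 nt in the controls and 1540 to 1675 nt in CKO 1 to 3, so shorter transcripts held a larger share of the knockout libraries.

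Levels are given as CPM, read counts divided by library size after TMM scaling. That scaling sets the bulk of the tested genes, not of the whole transcriptome, equal between libraries. The genes held carried 2.96% to 3.05% of the reads in controls and 2.85% to 2.88% in CKO 1 to 3. The TMM factors were 1.11 to 1.14 in controls and 0.772 to 0.947 in knockouts. Below, all genes means all genes tested. With edgeR's quasi-likelihood test, 550 of the 770 genes tested differed between knockout and control at an adjusted p under 0.05, which is 71.4%. Of all tested genes, 34% were higher and 37.4% lower, with a median log2 change of -0.064. Among the 4 genes, 1 was higher (Exoc5, in CPM but not in TPM), 1 was lower (Exoc6) and 2 did not pass (Exoc8 and Stx12). A call by itself is thus common in this comparison, and the sizes, the direction in each set and the dependence on scaling are described for each gene.

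**Figure D1:**
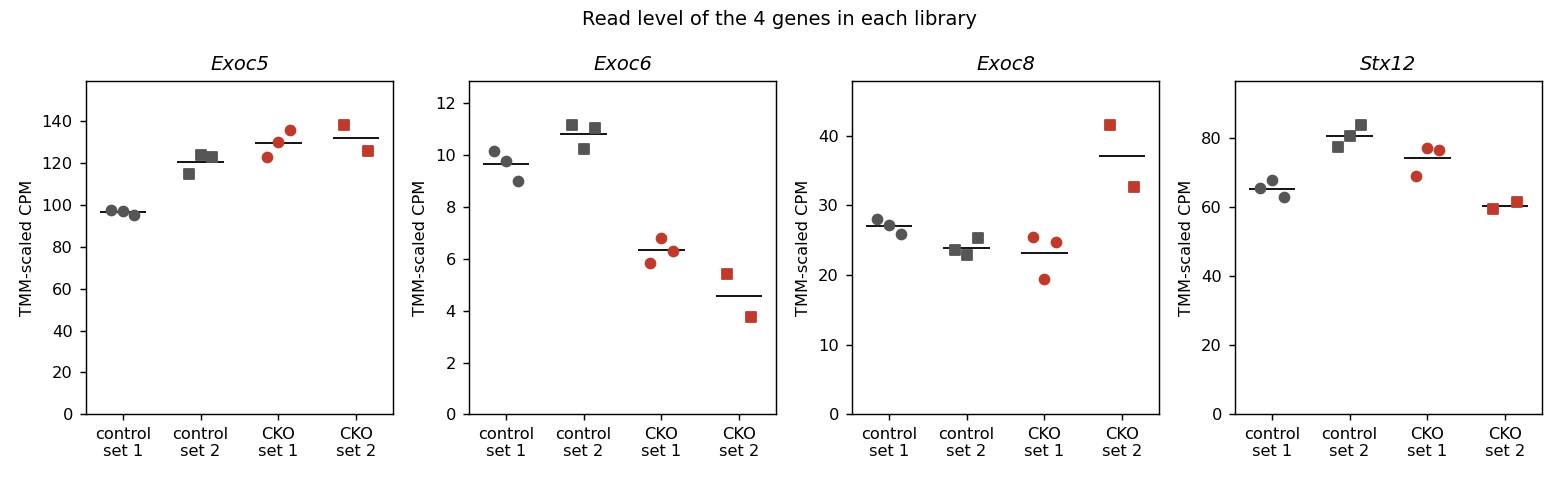
Reads of Exoc5, Exoc6, Exoc8 and Stx12 in each library, in TMM-scaled CPM (linear axes from 0). Points are libraries (circles set 1, squares set 2) and lines are means. Exoc6 lies at 3.74 to 6.82 CPM in the 5 CKO libraries and at 8.99 to 11.2 CPM in the 6 controls. The CKO libraries of Exoc8 and Stx12 split by set.

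Exoc5, the counterpart of yeast Sec10, is the core subunit that in yeast binds Sec15, the counterpart of Exoc6. The gene (gene ID 105504) lies on the minus strand of chromosome 14, 49011922 to 49066667 (GRCm38.p6), and has 5 RefSeq transcripts. Its first 260 bp overlap Ap5m1, a protein-coding gene that was not analysed here. Exoc5 stood at 97.4, 96.8 and 94.9 CPM in controls 1 to 3 and at 115, 124 and 123 CPM in controls 4 to 6. It stood at 123, 130 and 136 CPM in CKO 1 to 3, at 138 CPM in CKO a and at 126 CPM in CKO b. The 3 controls of set 1 were the lowest libraries, and the controls of set 2 reached the lower end of the knockout range, so the groups overlapped by a narrow margin.

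The mean of Exoc5 was 108 ± 13.5 CPM (SD, n = 6) in controls and 131 ± 6.46 CPM (SD, n = 5) in knockouts. Its reads rose by 0.30 on the log2 scale (SE 0.07, edgeR adjusted p = 0.00266). Within set 1 the log2 difference was 0.43 (adjusted p = 9.54e-05, with 65.6% of genes called), and within set 2 it was 0.13 (adjusted p = 0.0932, with 74.3% called). The sets differed in the size of the effect by -0.29 (SE 0.09, adjusted p = 0.0251), in a test that called 41.9% of genes, and that call was lost without CKO 3 (-0.26, adjusted p = 0.0611) or CKO b (-0.25, adjusted p = 0.0622). The controls themselves differed between sets, with Exoc5 0.32 higher in set 2 (adjusted p = 0.00983), a comparison in which 9.09% of genes were called. The knockouts of the 2 sets were closer, at a log2 difference of 0.03 (adjusted p = 0.752).

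Exoc6, the counterpart of yeast Sec15, is the subunit that recognises Rab11 and so links the complex to recycling vesicles. The gene (gene ID 107371) lies on the plus strand of chromosome 19, 37536763 to 37684052 (GRCm38.p6), has 2 RefSeq transcripts and overlaps 2 long noncoding RNA genes that were not analysed here. It had the fewest reads of the 4 genes, with 213 to 263 counts in the controls and 57 to 134 in the knockouts. Exoc6 stood at 10.1, 9.78 and 8.99 CPM in controls 1 to 3 and at 11.2, 10.2 and 11.03 CPM in controls 4 to 6. It stood at 5.83, 6.82 and 6.31 CPM in CKO 1 to 3, at 5.42 CPM in CKO a and at 3.74 CPM in CKO b. Every knockout library was below every control library, and the lowest was CKO b. The share of all genes with such a separation was not counted, and 37.4% of the 770 genes tested were called lower.

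The mean of Exoc6 was 10.2 ± 0.812 CPM (SD, n = 6) in controls and 5.62 ± 1.18 CPM (SD, n = 5) in knockouts. It fell by 0.88 on the log2 scale (SE 0.14, edgeR adjusted p = 0.000215), which leaves 0.545 of the control level. By size of the fall it ranked 198 of 770 genes. Within set 1 it fell by 0.61 (adjusted p = 0.00169) and within set 2 by 1.24 (adjusted p = 2.49e-05). The difference between these falls was -0.63 (SE 0.20, adjusted p = 0.0290), and without CKO b it was -0.41 (adjusted p = 0.0975). That call was also lost without control 3 (adjusted p = 0.0606), control 4 (0.0526) or CKO 2 (0.0557), at -0.61 to -0.59. The controls of the 2 sets did not differ past the threshold (0.17, adjusted p = 0.478), whereas CKO a and CKO b were 0.47 lower than CKO 1 to 3 (a log2 difference of -0.47, adjusted p = 0.0307).

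Because Exoc5 and Exoc6 stood on opposite sides of the control level in CPM, though both were below it in TPM, the 250 bases before their RefSeq start sites (GRCm38.p6) are shown 5′ to 3′, with every GC box (GGGCGG or, on the other strand, CCGCCC) and CCAAT (or ATTGG) in capitals. The Exoc5 window is chr14:49066668-49066917 on the minus strand, and the Exoc6 window is chr19:37550168-37550417 on the plus strand.
Exoc5: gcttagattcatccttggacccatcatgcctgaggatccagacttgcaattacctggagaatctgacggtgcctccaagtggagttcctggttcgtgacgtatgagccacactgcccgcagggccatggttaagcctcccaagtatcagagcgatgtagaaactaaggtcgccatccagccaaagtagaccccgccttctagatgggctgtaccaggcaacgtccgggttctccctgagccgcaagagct
Exoc6: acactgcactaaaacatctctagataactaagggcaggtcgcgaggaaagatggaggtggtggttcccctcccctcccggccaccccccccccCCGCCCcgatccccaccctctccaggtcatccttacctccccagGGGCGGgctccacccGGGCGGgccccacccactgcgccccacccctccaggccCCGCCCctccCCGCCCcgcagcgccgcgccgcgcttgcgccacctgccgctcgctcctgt
The start site used for Exoc6 lies 13655 bp inside the span of the gene. The Exoc6 window is 72.4% G and C, with 20 CpG and 5 GC boxes, and the Exoc5 window is 55.2% G and C, with 10 CpG and 0 GC boxes. The median over 32851 such windows is 52.4% G and C and 6 CpG, and 32.7% of them hold a GC box. The windows of Exoc8 (70.4% G and C, 34 CpG) and Stx12 (66% G and C, 30 CpG) held 2 and 3 GC boxes, and that of Stx12 also held a CCAAT, which 33.8% of all windows hold on either strand. None of the 4 windows held CACGTG or TATAAA, which occur on either strand in 6.02% and 12.4% of all windows. These are matches of letters only, and no binding at these genes was measured.

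Exoc8, the counterpart of yeast Exo84, is a subunit that binds active Ral GTPases. The gene (gene ID 102058) lies on the minus strand of chromosome 8, 124890299 to 124897705 (GRCm38.p6), with 1 RefSeq transcript. Exoc8 stood at 28.1, 27.1 and 25.9 CPM in controls 1 to 3 and at 23.5, 22.9 and 25.3 CPM in controls 4 to 6. It stood at 25.4, 19.4 and 24.7 CPM in CKO 1 to 3, at 41.6 CPM in CKO a and at 32.7 CPM in CKO b. CKO a and CKO b were above every other library, and CKO 1 to 3 lay within or below the control range. How many genes are placed in this way was not counted, and 74.3% of genes were called within set 2.

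The mean of Exoc8 was 25.5 ± 2.0 CPM (SD, n = 6) in controls and 28.8 ± 8.60 CPM (SD, n = 5) in knockouts. The knockouts of the 2 sets stood apart, at 23.2 ± 3.29 CPM in CKO 1 to 3 and 37.1 ± 6.30 CPM in CKO a and CKO b (SD). Within each set they also spread more than the controls, whose SDs were 1.06 CPM in set 1 and 1.23 CPM in set 2. Over all libraries the log2 difference was 0.16 (SE 0.16, edgeR adjusted p = 0.368). Within set 1 it was -0.22 (adjusted p = 0.115), and within set 2 Exoc8 rose by 0.63 (adjusted p = 0.000917). The effect in set 2 exceeded that in set 1 by 0.86 (SE 0.17, adjusted p = 0.00295). CKO a and CKO b were 0.68 above CKO 1 to 3 (adjusted p = 0.00149, with 49.1% of genes called), while the controls of set 2 were at -0.18 against those of set 1 (adjusted p = 0.391). The number of libraries limits what can be said of set 2, which has only CKO a and CKO b.

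Stx12 encodes the SNARE of recycling endosomes. The gene (gene ID 100226) lies on the minus strand of chromosome 4, 132854064 to 132884458 (GRCm38.p6), with 1 RefSeq transcript. Stx12 stood at 65.5, 67.7 and 62.8 CPM in controls 1 to 3 and at 77.5, 80.7 and 83.9 CPM in controls 4 to 6. It stood at 69.1, 77.1 and 76.7 CPM in CKO 1 to 3, at 59.4 CPM in CKO a and at 61.4 CPM in CKO b. In set 1 the 3 knockouts were above the 3 controls, and in set 2 the knockouts were below all 3 controls. How many genes separate in this way was not counted. With 65.6% of genes called within set 1 and 74.3% within set 2, it may be common.

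The mean of Stx12 was 73.0 ± 8.78 CPM (SD, n = 6) in controls and 68.7 ± 8.26 CPM (SD, n = 5) in knockouts, a log2 difference of -0.08 (SE 0.11, edgeR adjusted p = 0.528). Within set 1 it rose by 0.18 (adjusted p = 0.0219), a call that was lost when set 1 was fitted alone (adjusted p = 0.0625, with 65.1% of genes called). Within set 2 it fell by 0.42 (adjusted p = 0.00027). The effects of the sets differed by -0.60 (SE 0.09, adjusted p = 0.00107). The controls were 0.30 higher in set 2 than in set 1 (adjusted p = 0.0138), and CKO a and CKO b were at -0.30 against CKO 1 to 3 (adjusted p = 0.00543). The set coincides with the wording of the genotype labels, and that and any other difference between the sets cannot be told apart.

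Levels can be compared between genes only per length, and the deposited TPM values, which are scaled for transcript length, exist for 9 libraries here. In the 6 controls Stx12 was the most abundant at 80.2 ± 9.11 TPM (SD), followed by Exoc5 at 58.6 ± 6.87 TPM. Exoc6 at 8.76 ± 0.982 TPM and Exoc8 at 8.64 ± 0.724 TPM were lower, and these 2 means differed by less than their spread. Their order turned with the set. Exoc8 was above Exoc6 in each control of set 1 (means 9.21 and 8.15 TPM). It was below Exoc6 in each control of set 2 (8.07 and 9.37 TPM). In CKO 1 to 3 the levels were 49.4 ± 6.76 TPM for Stx12, 42.3 ± 5.25 TPM for Exoc5, 4.72 ± 0.600 TPM for Exoc8 and 2.80 ± 0.424 TPM for Exoc6 (SD, n = 3). The means of Stx12 and Exoc5 lay within the sum of their SDs there, but Stx12 was above Exoc5 in each of these libraries. Exoc6 was in each of them the lowest of the 4.

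The TPM of all 4 genes was lower in the knockouts, including that of Exoc5, whose CPM was higher. A TPM value depends on the mean transcript length of the whole library, which was shorter in the knockouts, and in these 9 libraries the median log2 change of all genes was 0.012 in CPM and -0.603 on the log2(TPM + 1) scale. On that scale Exoc5 was at -0.31 (limma adjusted p = 0.00914), Exoc6 at -1.27 (7.69e-06), Exoc8 at -0.84 (3.4e-05) and Stx12 at -0.55 (0.00055). In CPM the same 9 libraries gave 0.48 for Exoc5 (edgeR adjusted p = 4.74e-05), -0.55 for Exoc6 (0.000639), -0.17 for Exoc8 (0.191) and 0.24 for Stx12 (0.00746), with 66.8% of genes called. On like libraries Exoc5 and Stx12 were thus called in opposite directions in CPM and in TPM. Relative to the median of all genes, Exoc5 was higher and Exoc6 lower under every one of the 26 settings computed, by 0.21 to 0.85 and by -1.16 to -0.56. Exoc8 was above the median in 20 of the 26 settings (-0.24 to 0.93) and Stx12 in 10 (-0.34 to 0.23). The settings refit the same libraries and so are not independent. How many other genes keep their side of the median in all of them was not counted.

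With the recovered library totals as the only scaling, in the 9 libraries that have them, the median of all genes was -0.319. Exoc5 was then at 0.15 (edgeR adjusted p = 0.0692), Exoc6 at -0.88 (5.96e-05), Exoc8 at -0.50 (0.00127) and Stx12 at -0.09 (0.302). The share of lower genes among the calls was 52.4% with TMM, 67% with recovered totals, 83.5% with TPM and 39.4% after a loess offset on transcript length. Of all genes tested, 67% were called with recovered totals, 79% with TPM and 70.9% with the length offset. The fall of Exoc6 was called under each of these scalings and under TMM.

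**Figure D2:**
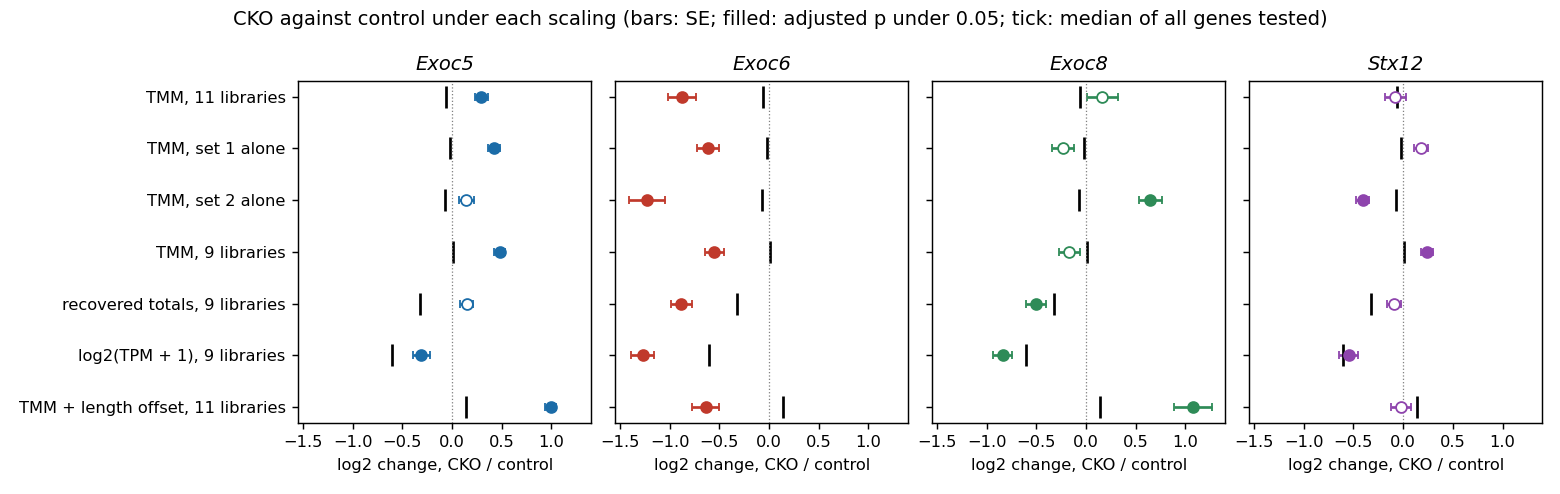
Log2 change of each gene between CKO and control libraries (x axis) under each scaling and set of libraries (y axis), with the SE as bars. Filled points have an adjusted p under 0.05, and the black tick is the median of all genes tested under that setting. Exoc6 lies left of the tick in every line and Exoc5 right of it, even where the TPM scale puts Exoc5 at -0.31.

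Transcript length moved with the changes in the whole table. Of 196 tested genes with an effective length over 4000 nt, 144 were lower and 13 higher in the knockouts, with a median of -0.73. Of 294 genes of 2000 to 4000 nt, 111 were lower and 89 higher, with a median of -0.11. Exoc5 (4616 nt) and Exoc8 (7364 nt) belong to the longer class, and Exoc5 is one of its 13 higher genes. Exoc6 (2916 nt over the controls together) and Stx12 (2273 nt) belong to the shorter class, whose lower quartile is -0.84 and upper quartile 0.39, so Exoc6 lay near the lower quartile of its class and Stx12 near the median. With each library's trend on length removed by the offset, Exoc5 was at 0.99 and Exoc8 at 1.08 (edgeR adjusted p = 0.000479), Exoc6 at -0.64 (0.00156) and Stx12 at -0.02 (0.858), with a median of 0.144 over all genes. Exoc5 then had nearly the same effect in both sets, at 1.00 in set 1 and 0.99 in set 2, and the difference of its effect between sets was -0.01 (adjusted p = 0.942). Exoc8 was then higher in both sets, at 0.60 in set 1 (adjusted p = 0.00311, with 64% of genes called) and 1.65 in set 2 (adjusted p = 3.04e-06, with 72.9% called), where its set 1 value without the offset was -0.22. Exoc6 was lower in both sets, at -0.40 (adjusted p = 0.0209) and -0.96 (adjusted p = 0.000246), and Stx12 was at 0.23 (adjusted p = 0.00691) and -0.35 (adjusted p = 0.000885).

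**Figure D3:**
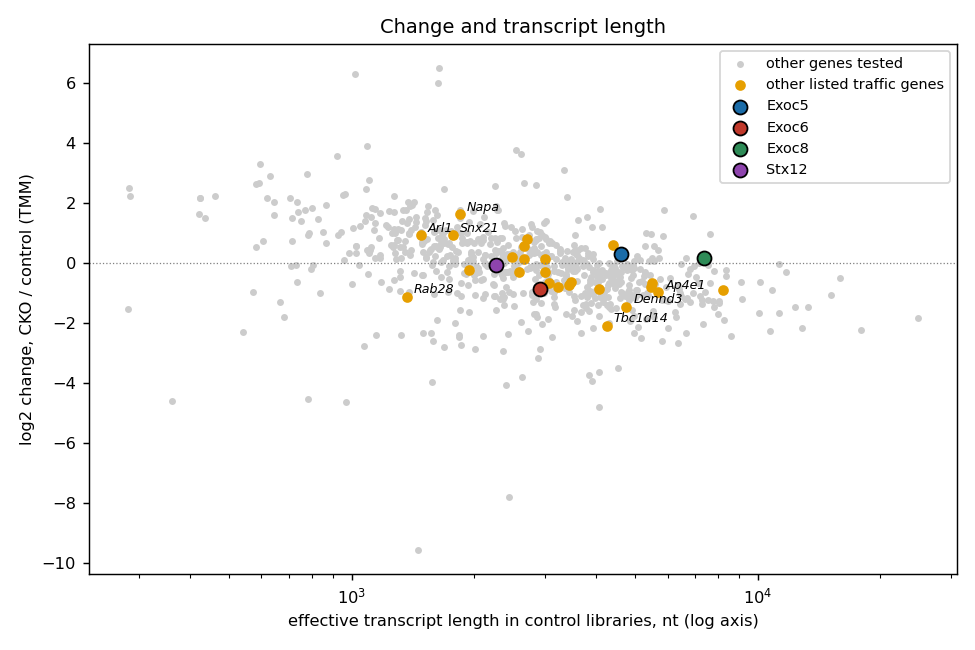
Log2 change between CKO and control (y axis, TMM scaling) against effective transcript length in the controls (x axis, nt, log axis) for each gene tested with a length. Grey points are other genes, orange points other listed traffic genes, and the 4 outlined points are Exoc5, Exoc6, Exoc8 and Stx12. Exoc5 at 4616 nt and Exoc8 at 7364 nt lie above the median of genes over 4000 nt, which is -0.73.

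The ratio of the counts of a pair of genes within a library needs no scaling between libraries. It still carries changes that follow transcript length, since the paired genes differ in length (Exoc5 4616, Exoc6 2916, Exoc8 7364 and Stx12 2273 nt). With the length offset, the log2 change went from 0.30 to 0.99 for Exoc5 and from 0.16 to 1.08 for Exoc8. It went from -0.88 to -0.64 for Exoc6 and from -0.08 to -0.02 for Stx12. The ratios were not corrected for length. The 6 pairs were added once the values were known, and were compared with an exact 2-sided permutation test over the 11 libraries (462 splits, smallest possible p 0.00433, p not adjusted). The counts of Exoc5 over Exoc6 were 9.61 to 12.1 in controls and 19.1 to 33.7 in knockouts. The mean log2 ratio rose from 3.40 ± 0.12 (SD, n = 6) to 4.56 ± 0.32 (SD, n = 5), a difference of 1.16 (exact p = 0.00433). The ratio did not overlap between the groups and moved the same way in set 1 (1.03) and in set 2 (1.40). How many other pairs of genes separate the groups as fully was not counted. With 71.4% of genes called in CPM, a full separation may be common.

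The log2 ratio of Exoc6 to Stx12 was 0.80 lower in the knockouts (a difference of -0.80, exact permutation p = 0.00433), with -0.79 in set 1 and -0.85 in set 2. Exoc5 over Stx12 was 0.36 higher (exact permutation p = 0.00433), with 0.24 in set 1 and 0.55 in set 2. Exoc6 over Exoc8 differed by -1.02 (exact permutation p = 0.00866), with -0.38 in set 1 and -1.89 in set 2, where CKO a and CKO b carry much of the difference: without these libraries it was -0.55 (exact permutation p = 0.0476). Exoc5 over Exoc8 differed by 0.15 (exact permutation p = 0.481), at 0.66 in set 1 and -0.49 in set 2. Exoc8 over Stx12 differed by 0.22 (exact permutation p = 0.437), at -0.42 in set 1 and 1.04 in set 2. The pairs with Exoc8 thus turned or grew with the set. The differences of Exoc5 over Exoc6 and of Exoc5 over Stx12 were also larger in set 2. That of Exoc6 over Stx12 was nearly the same in both sets. Within set 1 the smallest p the design allows is 0.1 and within set 2 it is 0.2.

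**Figure D4:**
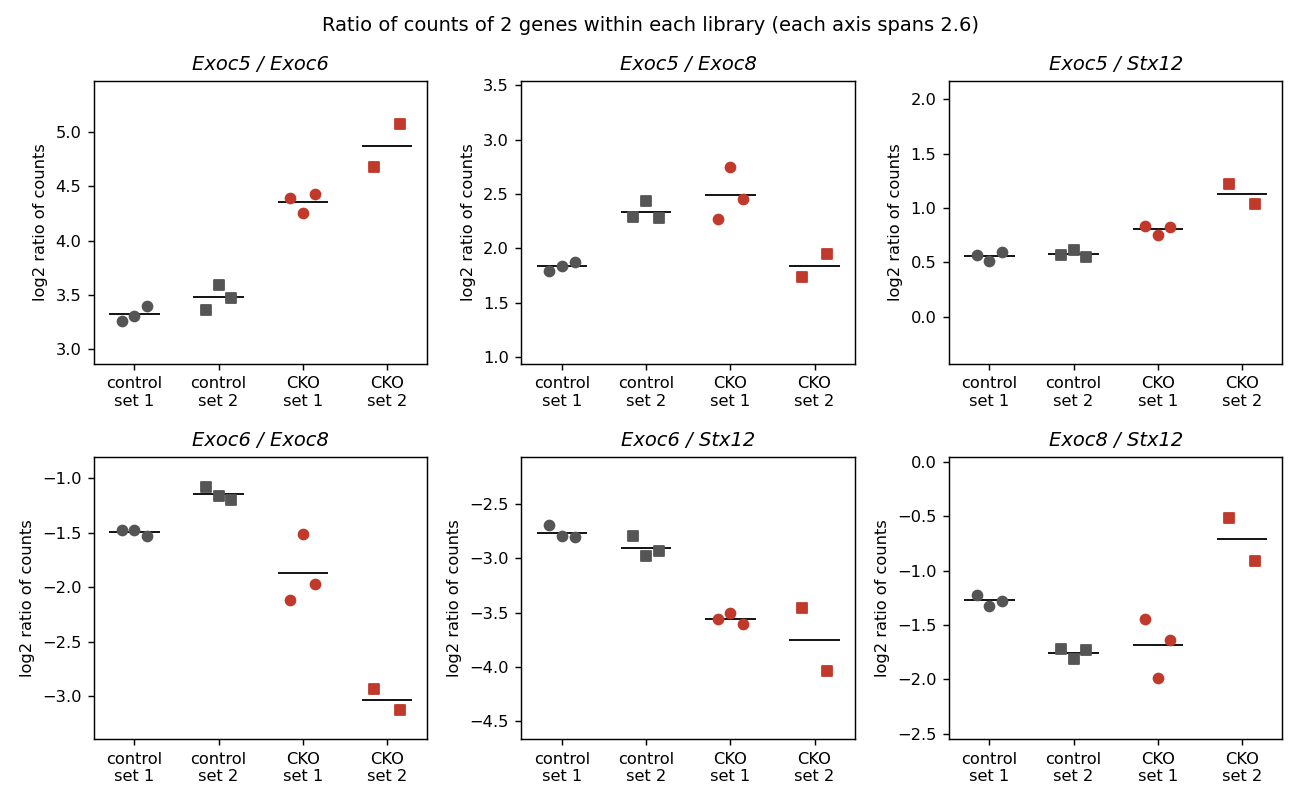
Log2 ratio of the counts of each pair of genes within a library (y axis, each spanning 2.6), for controls and CKO libraries of set 1 (circles) and set 2 (squares), with lines at the means. Exoc5 over Exoc6 lies at 3.26 to 3.60 in the controls and at 4.25 to 5.07 in the CKO libraries, while Exoc5 over Exoc8 and Exoc8 over Stx12 overlap between groups.

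Counts and FPKM together give the effective length of a gene, a mean over the transcripts to which its reads were assigned. That of Exoc6 was 2993, 2859 and 3058 nt in controls 1 to 3 and 2838, 2926 and 2864 nt in controls 4 to 6. It was 3401, 3345 and 3492 nt in CKO 1 to 3. All 3 knockout libraries were longer than all 6 controls, and the mean rose from 2923 ± 86.8 nt (SD, n = 6) to 3413 ± 73.9 nt (SD, n = 3). The difference was 490 nt or 16.8% (exact 2-sided permutation test, p = 0.0238, the smallest that 84 splits allow).

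Fitted in limma on log2 effective length with 484 genes, Exoc6 was 14.9% longer (log2 change 0.20, SE 0.03, adjusted p = 0.00117), in a fit that called 61.6% of genes in either direction. It ranked 7 of 484 from the largest lengthening. Of these genes 1.45% were longer by over 1.1-fold with an adjusted p under 0.05, and 11.2% were shorter. Without the size criterion, 28.7% of genes had all 3 knockout libraries longer than all 6 controls, so the separation alone is common. The annotation of GENCODE M21 lists 1 Exoc6 transcript of 3543 nt, while RefSeq lists 2 for the gene. The lengths of CKO a and CKO b were not computed, so the lengthening was measured in knockouts of set 1 only, where against the set 1 controls it was 443 nt (exact permutation p = 0.1, the smallest possible).

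The group means of the other genes differed by at most 0.22%. Exoc5 was at 4616 ± 1.21 nt in controls and 4626 ± 0.848 nt in CKO 1 to 3, Stx12 at 2273 ± 0.2 and 2275 ± 0.278 nt, and Exoc8 at 7364 ± 7.35 and 7371 ± 8.27 nt (SD, n = 6 and 3). With spreads this narrow, limma called the differences of Exoc5 (0.24%, adjusted p = 0.000335) and Stx12 (0.0977%, adjusted p = 0.0132), and not that of Exoc8 (0.105%, adjusted p = 0.331). The length of Exoc8 lies close to the 7407 bp span of the gene.

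**Figure D5:**
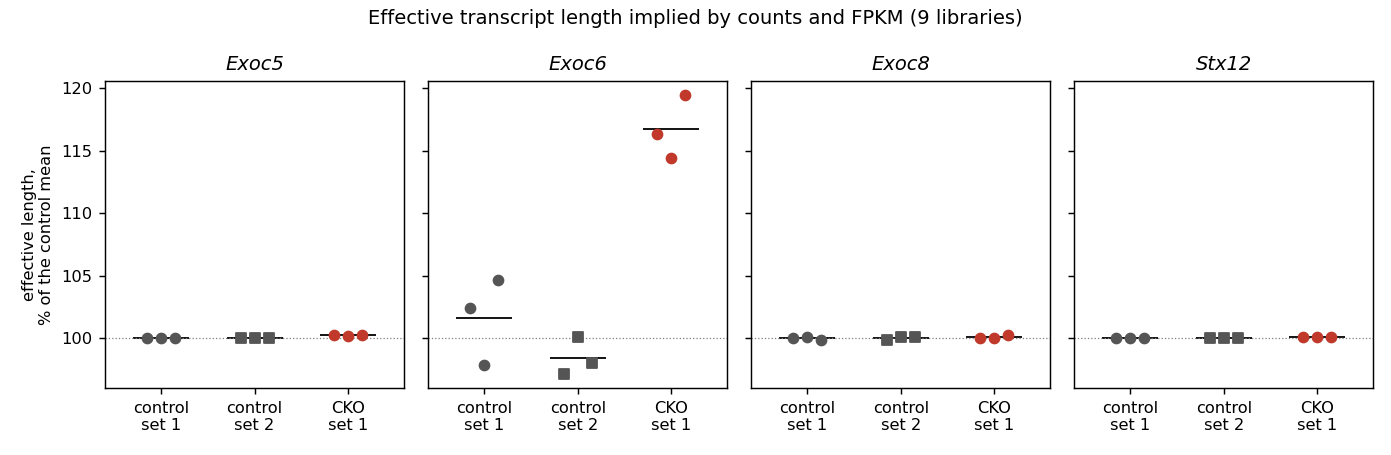
Effective transcript length of each gene, as percent of its mean over the 6 controls (y axis, which does not start at 0), in the 9 libraries with FPKM. Points are libraries (circles set 1, squares set 2) and lines are means. Exoc6 is 16.8% longer in CKO 1 to 3 on average, and the group means of the other genes differ by at most 0.22%.

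The other genes of vesicle traffic were described from 8 lists of named genes, of which 24 were tested besides the 4 members. Of these 24, 6 were higher, 14 were lower and 4 did not pass, with a median log2 change of -0.475, against 34% higher and 37.4% lower and a median of -0.064 over all genes. On the log2(TPM + 1) scale 1 was higher and 19 lower of 23, and after the length offset 9 were higher and 6 lower of 24, so the balance of the lists moved with the scaling as that of all genes did. Of 12 exocyst genes listed 3 were held, and of 18 syntaxin genes 1, so no further subunit or syntaxin is described.

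Rhoq (TC10), a GTPase that binds the exocyst in insulin-stimulated glucose transporter delivery, fell by 0.85 (SE 0.23, edgeR adjusted p = 0.00569), from 151 ± 22.6 to 86.6 ± 31.1 CPM. Its log2 difference was -0.30 in set 1 and -1.59 in set 2. After the length offset Rhoq was at -0.25 (adjusted p = 0.22). Napa (alpha-SNAP) and Napg (gamma-SNAP), adaptors by which NSF takes spent SNARE complexes apart, moved in opposite directions. Napa rose by 1.63 (SE 0.14, adjusted p = 2.21e-06), from 111 ± 2.98 to 343 ± 102 CPM, and stayed higher on the TPM scale at 0.47 (adjusted p = 0.000221). Napg fell by 0.64 (SE 0.22, adjusted p = 0.0241), from 40.2 ± 5.65 to 26.7 ± 9.54 CPM. Its log2 difference was -0.09 in set 1 and -1.38 in set 2, and the call was lost without CKO 1 (-0.61, adjusted p = 0.0541), CKO a (-0.42, adjusted p = 0.0977) or CKO b (-0.48, adjusted p = 0.108). Cog4, a subunit of the COG complex that tethers vesicles at the Golgi, rose by 0.80 in CPM (SE 0.12, adjusted p = 0.000128) but was at -0.21 on the TPM scale (adjusted p = 0.032).

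Of 9 genes of the Rab and Arf family and their regulators, 1 was higher and 7 were lower, beside 34% higher and 37.4% lower over all genes. After the length offset, 3 of the 7 falls were near 0, with Dennd4a at 0.06 (adjusted p = 0.499), Gbf1 at -0.02 (0.769) and Rab15 at -0.02 (0.873). Arl1, a GTPase of the trans-Golgi, was 0.92 higher in CPM (adjusted p = 1.72e-06) and at -0.04 in TPM (adjusted p = 0.653). Tbc1d14, a Rab11-binding protein of recycling endosomes, fell by 2.10 (adjusted p = 2.73e-05) from 43.8 ± 2.32 to 11.2 ± 5.27 CPM, and Dennd3, an activator of Rab12, fell by 1.46 (adjusted p = 1.74e-07). Both also fell after the length offset, at -1.47 and -0.76.

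Of 4 coat and adaptor genes, 1 was higher and 1 lower. Ap1s2, a small subunit of the AP-1 adaptor, was 0.21 higher (adjusted p = 0.0492) and at -0.28 in TPM, and its call held in only 3 of the 11 fits that leave out a library, those without control 1, CKO 2 or CKO b. Ap4e1, the large subunit of AP-4, fell by 0.97 (adjusted p = 0.000486) but was at -0.20 after the length offset (adjusted p = 0.211). Of 7 genes of endosomal sorting, 2 were higher and 4 lower. The sorting nexin Snx21 and Chmp7, an ESCRT protein, were 0.93 (adjusted p = 0.000171) and 0.57 (adjusted p = 0.000123) higher in CPM and at -0.10 and -0.35 in TPM. Fig4, a phosphoinositide phosphatase of endosomes, fell by 0.81 (adjusted p = 8.16e-05) and by 0.45 after the offset, and Snx19 fell by 0.68 (adjusted p = 3.07e-06) but was at 0.09 after the offset (adjusted p = 0.28).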

How the data were processed

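RNA-seq libraries of 6 control and 5 Pw1 CKO cardiac fibroblast samples were compared. Per the file headers, the deposited values are counts, TPM and FPKM of each gene. The counts that the authors deposited are expected counts, to judge by the values, of which up to 70.4% in a library are not whole, and they were rounded here. TPM was deposited per length and per library, with the mean transcript length of the library in its scale, and FPKM was deposited per length and per fragments. Per the submitters' processing notes, Bowtie2, RSEM, DESeq2 and GRCm38 were used, with no versions. Whether reads were counted by strand is not given in the sources used here.

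The table was used in part. It has 1294 genes, of which 1293 were complete and 1141 had a count in every library. The other 152 were blank in a library and left out. Positions are those of a RefSeq table of GRCm38.p6, in which 1275 IDs were found. Of 33 value columns 29 were used, and the 4 TPM and FPKM columns of CKO a and CKO b were not, since their names tie them to no single sample.

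Library totals came from count over FPKM against transcript length (86 genes of FPKM of at least 5 for control 1), and for CKO a and CKO b from the share of reads held in CKO 1 to 3. Effective length is count over FPKM and total, for genes with FPKM of at least 1. The test was the quasi-likelihood F test of edgeR 4.0.16 (R 4.3.3, filterByExpr, TMM, 2-sided, Benjamini-Hochberg over all genes tested, 0.05) on group and set, and a model with 4 means, 1 per group and set, gave effects within sets. The comparisons of one set with the other within a group were added after seeing the data. Lengths were tested with exact permutation tests and limma 3.58.1. The edgeR test of the groups, the edgeR test of the difference between sets and the limma fit of lengths were tested on simulated data. The other steps were not. In the simulated counts most genes were unchanged and no change followed transcript length, unlike in these data. The edgeR tests were thus not checked under such a trend or with most genes changed. Alternatives were DESeq2 1.42.0, limma-voom, TPM with a pseudocount of 1 or 0.1, recovered totals, a loess length offset (span 0.5), other filters, no set term, each set alone, a replicate block, and each library left out.

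The 4 genes and all lists were chosen with earlier results of these data known. Of the pathway lists, exocyst, exocyst partners, syntaxins, other SNAREs and other tethers were named whole, and from each other list the called genes with the 2 largest rises and the 2 largest falls. Of the marker lists, those of fibroblasts, endothelial cells, cardiomyocytes, smooth muscle cells and pericytes, lymphocytes and neutrophils held no gene of the table. For each of the 4 genes, the 2 most correlated genes over libraries, and the 2 after subtracting the mean of each group and set, were named among genes with an average log2 CPM of at least 1, leaving out predicted gene names. Promoter windows came from RefSeq (GRCm38.p6) and matched all 4 genes.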

Additional observations from a re-analysis of the deposited data

Results flagged for a closer look

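With TMM scaling, the response of each of the 4 genes to the knockout differed between the 2 sets of libraries, by a test of the difference itself in edgeR. Taking set 1 from set 2, the log2 effects differed by -0.29 for Exoc5, -0.63 for Exoc6, 0.86 for Exoc8 and -0.60 for Stx12, with 41.9% of all genes past the threshold in the same test. For Exoc5 the difference missed the threshold with the length offset (-0.0115, adjusted p = 0.942), with DESeq2 size factors (adjusted p = 0.0664) and without CKO 3 or CKO b. For Exoc6 it missed with the offset (adjusted p = 0.0523) and without control 3, control 4, CKO 2 or CKO b. For Exoc8 and Stx12 it passed under every alternative run. Exoc6 was lower in both sets. Stx12 was called higher in set 1 and lower in set 2, with and without the offset, but not in set 1 fitted alone (adjusted p = 0.0625). Exoc8 was called in set 2 with TMM and in both sets, higher, with the offset. In the 12 groups of 5 or 6 libraries looked at (reads of each gene in both groups and effective length in the controls), no library stood apart from the others.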

How the results depend on the processing

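The fall of Exoc6 kept its direction and its call under all 25 alternatives. For Exoc5 the call was lost with recovered totals (0.15) and in set 2 alone (0.14), and the direction turned in limma on log2(TPM + 1) (-0.31) and log2(TPM + 0.1) (-0.31). Exoc8 turned with recovered totals (-0.50), with TPM (-0.84 and -0.96 with pseudocounts of 1 and 0.1), in set 1 alone (-0.23) and without CKO a and CKO b (-0.17, chosen after seeing the data), and passed the threshold with the length offset (1.08) and in set 2 alone (0.65). Stx12 turned in set 1 alone (0.18) and without CKO a and CKO b (0.24, adjusted p = 0.00746, with 66.8% of genes called), and passed with TPM (-0.55 for both pseudocounts) and in set 2 alone (-0.41). The difference between sets missed the threshold for Exoc5 with DESeq2 size factors (-0.24) and with the length offset (-0.0115), and for Exoc6 with the offset (-0.55). The cause of these turns was not tested. With each library left out in turn, the change was 0.26 to 0.37 for Exoc5, -0.93 to -0.71 for Exoc6, 0.04 to 0.29 for Exoc8 and -0.12 to 0.03 for Stx12, which turned without CKO a (0.0253) or CKO b (0.0045). The difference between sets ran from -0.36 to -0.25 for Exoc5 (missed without CKO 3 or CKO b), from -0.92 to -0.41 for Exoc6 (missed without control 3, control 4, CKO 2 or CKO b), from 0.68 to 1.00 for Exoc8 and from -0.66 to -0.57 for Stx12. The length difference ran from 9.78 to 10.6 nt for Exoc5, 450 to 523 nt for Exoc6, 2.27 to 9.79 nt for Exoc8 and 2.05 to 2.30 nt for Stx12, and 2 CKO libraries against 6 controls cannot reach a p below 0.0714. In set 1 alone the length differences of Exoc5, Exoc6 and Stx12 were 11.1, 443 and 2.22 nt, where p cannot go below 0.1, and as differences of medians 10.5, 506 and 2.27 nt (exact permutation p = 0.0714). With the replicate number as a block in set 1, Exoc5 was at 0.42, Exoc6 at -0.61, Exoc8 at -0.24 and Stx12 at 0.18, and 479 genes were called against 499 without the block. The correlations of same-numbered libraries' deviations were 0.112, 0.063 and 0.224, so the numbers were not taken to pair the samples, although each correlated best with its own number. Genes called ranged from 521 to 564 and listed traffic genes called from 17 to 20 with a library left out. Exoc6 had 57 to 134 reads in a knockout library, the fewest of the 4 genes.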

Other observations

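As a description, with no test, the genes most like each of the 4 in log2 CPM over the 11 libraries were named among 523 genes. The libraries share depth, group and set, which enter these correlations. For Exoc6 these were Inpp5f (r = 0.98) and Scamp1 (r = 0.98), and 110 of the 523 genes had r over 0.9, so many genes follow the same order of libraries. For Exoc5 they were Alg9 (r = 0.90) and Lpxn (r = 0.88), for Exoc8 Vipas39 (r = 0.91) and Fam234a (r = 0.82), and for Stx12 Sptssa (r = 0.91) and Tmem263 (r = 0.90), each with at most 2 genes over 0.9. After subtracting the mean of each group and set, the closest were Bmt2 and Mthfsl for Exoc5 (r = 0.92 and 0.91), Adamts9 and Kank1 for Exoc6 (r = 0.95 and 0.93), Cd276 and Btaf1 for Exoc8 (r = 0.95 and 0.95), and Pls3 and Sptssa for Stx12 (r = 0.93 and 0.92). Sptssa is thus named for Stx12 by both measures, which use the same libraries. The subtraction makes CKO a and CKO b mirror each other and leaves fewer free values than 11. Each named gene is the highest or next of 523, and how high such an r goes without any likeness was not computed. Among the 4 genes, the correlations over 11 libraries after that subtraction ran from -0.31 (Exoc8 and Stx12) to 0.60 (Exoc5 and Exoc6).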
